A study of Mus musculus with 12 samples.

Results

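The 4 adult hemoglobin genes of the mouse, Hba-a1, Hba-a2, Hbb-bs and Hbb-bt, and Alas2 were followed through prefrontal cortex (PFC) RNA after repeated cocaine. These 5 genes were taken by name from the tables of 3 time points and were found in every table, among 39036 gene names with a row at all 3. They had been chosen by their measured values in these same tables, so that everything given on them is a description. The tissue came from 10-week-old male C57BL/6 mice, for which the labels name no transgene or deletion. Each mouse received 14 daily intraperitoneal injections, of saline in the control groups and of cocaine at 20 mg/kg in the others. The PFC was taken at 1 of 3 times, 2 h, 24 h or 7 d, counted from the final injection, which gave a saline and a cocaine group at each, 6 in all. Each group had 2 libraries of polyadenylated RNA, with tissue of 5 mice in each. The deposited value is 1 pooled FPKM per gene and group (fragments counted per length of transcript and per number of fragments mapped), so that the spread between the 2 libraries is not seen. No difference below was therefore tested. The depth is unknown from the tables, and the authors' own test columns in them were not used. All 5 genes had a value in each of the 6 groups, and all passed the filter of a mean of 1 FPKM over both groups of a time point that was used for counts over all genes. Cortical neuron markers were abundant, as the label of the tissue says: Snap25, a synaptic vesicle fusion protein, ranged from 1385 to 1581 FPKM, and none of the 9 neuron markers with a value was past 1.2-fold between cocaine and saline at 2 h or 24 h, while Neurod6 alone was (lower) at 7 d.

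Hemoglobin, the oxygen carrier of red blood cells, joins alpha chains from Hba-a1 and Hba-a2 with beta chains from Hbb-bs and Hbb-bt, each chain around a heme. Alas2 makes the form of 5-aminolevulinate synthase used in maturing red cells, and its reaction opens heme synthesis; other cells, the brain included, use Alas1. Circulating red cells of mammals have no nucleus but keep some globin mRNA, and the vessels of a cortex that was not flushed hold blood. Globin mRNA has also been described in some neurons and glia. In bulk tissue such as this, more cells of a type and more RNA per cell cannot be told apart.

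The alpha genes stand on chromosome 11 and the beta genes on chromosome 7. On GRCm38 the deposited positions were chr11:32283511-32284465 for Hba-a1, chr11:32296489-32297298 for Hba-a2, chr7:103812524-103813996 for Hbb-bt and chr7:103826530-103828096 for Hbb-bs. Alas2 was listed under a stretch of the X chromosome, chrX:150519519-150643878, that also holds Apex2 and Pfkfb1; each had values of its own, and RefSeq places the Alas2 gene itself at chrX:150547417-150570622.

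The sequences just before the start sites are shown with short promoter elements marked, of which only the CACCC box was found in all 5 genes. Each is the 250 bases upstream of the RefSeq start on GRCm38.p6, written 5′ to 3′ on the gene's own strand. Capitals mark, on either strand, the CCAAT box, the letters CACCC of a CACCC box, the TATA-like letters ATATAA and a GATA-type site, which is AGATAA or else AGATAG, or else TGATAA or else TGATAG, and positions count back from the base before the start, which is -1. The windows were chr11:32283422-32283671 (plus strand) for Hba-a1, chr7:103827929-103828178 (minus strand) for Hbb-bs, chr7:103813924-103814173 (minus strand) for Hbb-bt and chrX:150547167-150547416 (plus strand) for Alas2.
Hba-a1: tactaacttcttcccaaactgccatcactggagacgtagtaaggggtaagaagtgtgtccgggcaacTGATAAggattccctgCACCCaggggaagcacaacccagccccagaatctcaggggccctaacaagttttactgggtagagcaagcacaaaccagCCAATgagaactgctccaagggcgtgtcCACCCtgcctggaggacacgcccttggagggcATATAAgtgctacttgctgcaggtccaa
Hbb-bs: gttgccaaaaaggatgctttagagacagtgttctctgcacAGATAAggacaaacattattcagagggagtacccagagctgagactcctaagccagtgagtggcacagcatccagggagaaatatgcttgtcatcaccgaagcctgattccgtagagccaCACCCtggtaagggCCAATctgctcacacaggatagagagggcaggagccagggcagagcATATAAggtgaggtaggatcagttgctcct
Hbb-bt: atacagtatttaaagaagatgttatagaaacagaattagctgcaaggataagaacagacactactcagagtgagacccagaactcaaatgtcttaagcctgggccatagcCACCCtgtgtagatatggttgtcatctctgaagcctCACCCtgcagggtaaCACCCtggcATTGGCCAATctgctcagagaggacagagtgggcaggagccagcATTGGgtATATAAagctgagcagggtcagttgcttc
Alas2: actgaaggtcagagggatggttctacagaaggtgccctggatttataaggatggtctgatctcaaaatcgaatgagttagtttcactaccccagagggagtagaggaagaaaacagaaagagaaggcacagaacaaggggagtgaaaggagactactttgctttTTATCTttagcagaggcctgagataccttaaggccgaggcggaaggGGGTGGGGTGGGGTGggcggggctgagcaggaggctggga
Hba-a2 is left out because 297 of the 300 bases around its start (250 before and 50 after) ran on unbroken in the Hba-a1 window, whereas the longest run shared by the Hbb-bs and Hbb-bt windows was 14 bases.

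The ATATAA box was found in the 4 globin promoters, beginning at -28 in Hba-a1, -30 in Hbb-bs and -29 in Hbb-bt, and not in that of Alas2; 9.10% of the 32851 RefSeq promoters in the table held it in the same window. CCAAT was likewise found in the 4 globin promoters and in 33.8% of all. CACCC was in all 5 and in 52.0% of all: the Alas2 window has 3 copies side by side on the opposite strand from -40 to -26, and the Hbb-bt window has 3 spread copies. A GATA-type site was in 4 of 5, all except Hbb-bt, and in 26.5% of all; in Alas2 it lay from -86 to -81. In Hbb-bt, 2 CCAAT matches on opposite strands abut from -80 to -71. These matches are letters in a window and say nothing of what was bound there.

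The paired genes are also nearly the same inside. The coding sequences of Hba-a1 and Hba-a2 in the GENCODE transcripts used here (NCBIM37) are 429 bases long and differ at 1 base, an identity of 99.8%. Those of Hbb-bs and Hbb-bt, matched to that annotation's Hbb-b1 and Hbb-b2 by the bases after the start, are 444 bases long and also differ at 1. Of the 75-base windows of Hba-a1, 86.2% occur unchanged in Hba-a2, and of those of Hbb-bs 92.4% occur in Hbb-bt, while no such window of Hba-a1 occurs in Hbb-bs. The split of reads within the alpha pair and within the beta pair is therefore uncertain, and the sums of each pair are given beside the single genes. The paper states that it kept uniquely mapped reads only. Reads that match both genes of a pair may thus be missing from each gene and from the sum. How far this lowered the levels was not tested.

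At 2 h after the last injection, all 5 genes were higher in the cocaine group than in the saline group, by 1.45-fold to 1.65-fold. Hba-a1 was at 75.7 FPKM in saline against 118 in cocaine, a log2 ratio of 0.64. Hba-a2 was at 93.5 and 148 FPKM, a log2 ratio of 0.66. The alpha genes thus stood side by side in both level and ratio. Hbb-bs, the most abundant of the 5 in every group except cocaine at 24 h, was at 113 FPKM in saline against 170 in cocaine, a log2 ratio of 0.59. Hbb-bt was at 40.4 and 66.8 FPKM, a log2 ratio of 0.73 and the highest of the members. Alas2, near the lower limit of the genes considered, was at 1.04 and 1.51 FPKM, a log2 ratio of 0.54. All 5 were past a 1.2-fold increase, which 10.7% of the 13147 named genes with a mean of at least 1 FPKM also were, and the 4 globin genes were past 1.5-fold, as were 2.05% of the same genes. The ratio of Hbb-bt was exceeded by 181 of those genes and that of Alas2 by 327. The median over all of them was a log2 ratio of 0.02.

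At 24 h the groups lay close together. None of the 5 genes was past 1.2-fold, against 6.03% of 13341 genes higher by that much, and none was past 1.5-fold, against 1.39%. Hba-a1 was at 111 FPKM in saline against 126 in cocaine, and Hba-a2 at 136 and 159, log2 ratios of 0.19 and 0.23. Hbb-bs was at 141 and 149 FPKM, a log2 ratio of 0.08. Hbb-bt and Alas2 were slightly lower in cocaine, at 70.2 and 68.1 FPKM for Hbb-bt and at 1.46 and 1.41 for Alas2, log2 ratios of -0.04 and -0.05. The alpha genes were thus on the upper side of all genes at 24 h (7.80% had a higher ratio than Hba-a2), and Hbb-bt and Alas2 were in the lower part (66.8% had a higher ratio than Hbb-bt).

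At 7 d all 5 genes were again higher in cocaine, by smaller ratios than at 2 h. Hba-a1 was at 94.3 FPKM in saline against 119 in cocaine, a log2 ratio of 0.33, and Hba-a2 at 121 and 147, a log2 ratio of 0.27. Hbb-bs was at 171 and 188 FPKM, a log2 ratio of 0.14, and Hbb-bt at 64.8 and 74.4, a log2 ratio of 0.20. Alas2 was at 1.15 and 1.38 FPKM, a log2 ratio of 0.27. The alpha genes and Alas2 were past 1.2-fold, 3 of 5, where 8.46% of 13182 genes were, and none reached 1.5-fold, which 1.16% did. With a pseudocount of 1, Alas2 was no longer past 1.2-fold at 7 d (log2 ratio 0.15), which left 2 members. At a lower fold of 1.1, all 5 were past it at 2 h and at 7 d and 2 at 24 h, where 24.6%, 21.4% and 16.9% of genes were, in that order. At 7 d, genes with a short coding sequence had lower ratios as a group: the median log2 ratio was -0.13 over the genes nearest to the globins in coding length, against -0.01 over all genes. Relative to that median, the 4 globin genes stood at log2 ratios of 0.27 to 0.47. The part of transcript length in these values was not tested.

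**Figure D1:**
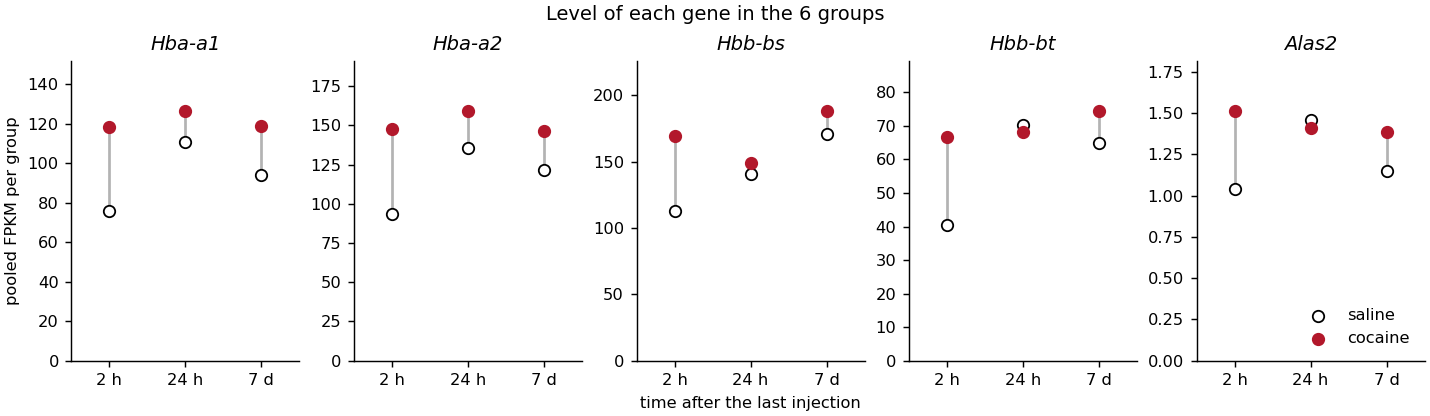
Pooled FPKM of each gene (y axis, from 0) at 2 h, 24 h and 7 d after the last injection (x axis), with saline as open and cocaine as filled circles joined by a line; each circle is 1 deposited value for 2 libraries, with no error. The open circle at 2 h is the lowest of the 6 in every panel, from 75.7 FPKM in Hba-a1 to 1.04 in Alas2.

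**Figure D2:**
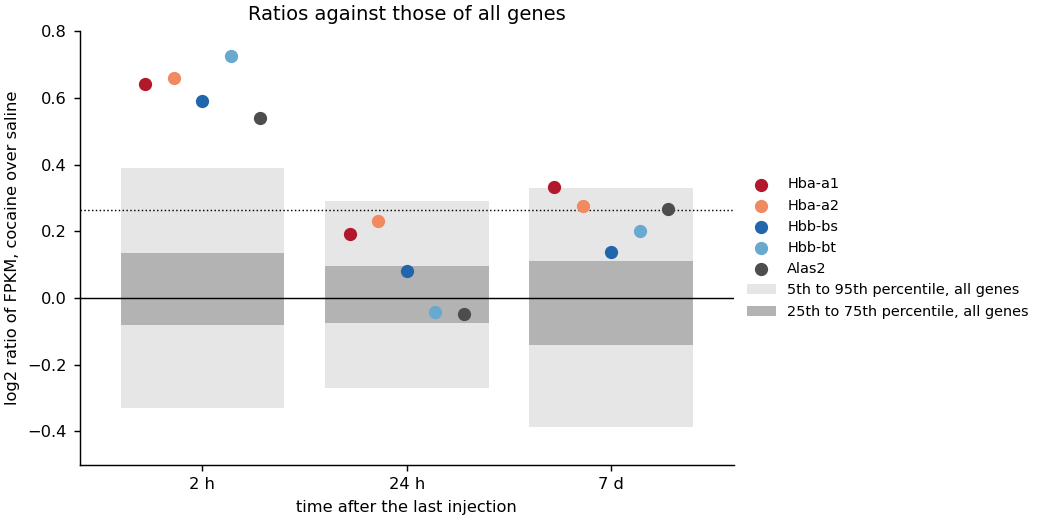
Log2 ratio of FPKM, cocaine over saline (y axis), of the 5 genes at each time (x axis) over grey boxes for all named genes of at least 1 FPKM (dark, the 25th to 75th percentile; light, the 5th to 95th); the dotted line is 1.2-fold. The 5 points lie above the light box at 2 h, inside it at 24 h, and at 7 d inside it apart from Hba-a1, at 0.33.

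Saline at 2 h stood apart from the other groups in level. The summed FPKM of the 4 globin genes was 322 in saline and 502 in cocaine at 2 h, 457 and 502 at 24 h, then 451 and 528 at 7 d. The cocaine groups thus spanned 1.05-fold from the lowest to the highest, and the saline groups 1.42-fold, with saline at 2 h alone at the low end. The cocaine over saline ratio of the sum at 2 h was 1.56, against 1.1 at 24 h and 1.17 at 7 d. The 3 tables were normalized separately by the authors, but the median gene moved little between them: by a log2 ratio of 0.02 from saline at 2 h to saline at 24 h, and of less than 0.01 to saline at 7 d.

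Saline at 2 h held the lowest value of each of the 5 genes, and how many of all genes were lowest there was not counted. From saline at 2 h to saline at 24 h, all 5 were higher by at least 1.2-fold, as were 9.71% of 12927 genes; to saline at 7 d, the 4 globin genes were, as were 12.4% of 12651 genes, and Alas2 was 1.1-fold higher. Between cocaine groups, none of the 5 was 1.2-fold higher at 24 h than at 2 h, where 8.85% of genes were, or at 7 d than at 2 h, where 8.47% were. From cocaine at 24 h to cocaine at 7 d, however, Hbb-bs was 1.27-fold higher, a ratio that 471 of 12727 genes exceeded. From saline at 24 h to saline at 7 d, Hbb-bs was 1.22-fold higher and Alas2 was lower, at a ratio of 0.789. The other members were within 1.2-fold in both. Hbb-bt gave the widest span among saline groups, 1.74-fold from 2 h to 24 h, which is more than its 1.65-fold between cocaine and saline at 2 h. The span among saline groups of the globin sum, 1.42-fold, is likewise near the 1.56-fold of the 2 h comparison. Whether the saline value at 2 h comes from both libraries or from 1 of them cannot be told from pooled values. When each cocaine group was set instead against the geometric mean of the 3 saline groups, an alternative chosen after the data were seen, the log2 ratio of the globin sum took the values 0.30, 0.29 and 0.41 at the 3 times in order. Against that mean, 4 members were past 1.2-fold at 2 h, where 9.68% of 12530 genes were, 2 members at 24 h, where 5.31% were, and 4 at 7 d, where 4.17% were.

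**Figure D3:**
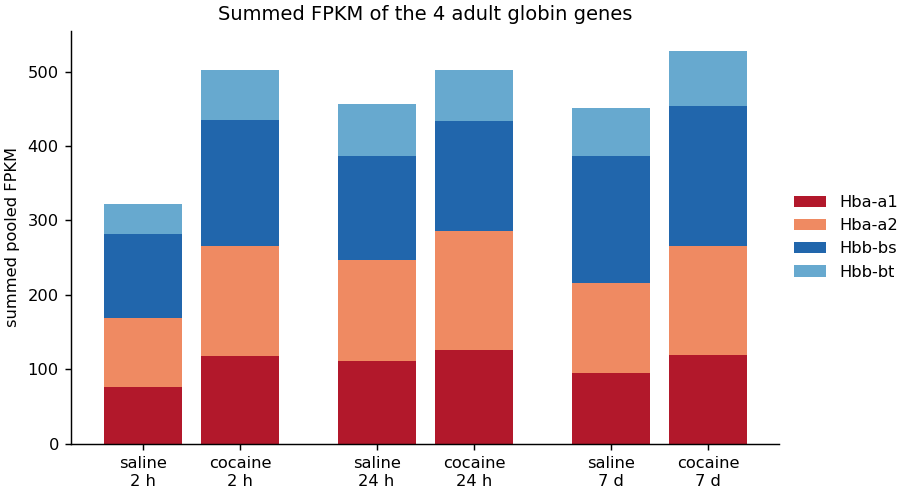
Summed pooled FPKM of the 4 adult globin genes (y axis, from 0) in the 6 groups (x axis), with the share of each gene stacked in color and no error, since each part is 1 pooled value. The 3 cocaine bars reach 502, 502 and 528, and the saline bars 322, 457 and 451.

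The order of the 6 groups differed between the alpha and beta genes above that lowest value. For Hba-a1 all 3 cocaine groups lay above all 3 saline groups: the highest saline value was 111 FPKM at 24 h and the lowest cocaine value 118 at 2 h. Hba-a2 had the same division, with 136 FPKM as the highest saline and 147 as the lowest cocaine value. The alpha genes share most of their coding sequence, so these are not separate cases. How many of all genes divide this way was not counted, so the division is not read as particular to them. For Hbb-bs the groups overlapped, since saline at 7 d (171 FPKM) lay above cocaine at 24 h (149) and at 2 h (170). Hbb-bt overlapped too, with saline at 24 h (70.2 FPKM) above cocaine at 2 h and at 24 h. In Alas2, saline at 24 h (1.46 FPKM) lay above cocaine at 24 h and at 7 d. Without replicate values, neighbours in these orders cannot be said to differ.

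Ratios within a group do not depend on how its table was scaled. Hba-a2 over Hba-a1 stayed between 1.23 and 1.29 in all 6 groups. Hbb-bs over Hbb-bt varied more, from 2.00 in saline at 24 h to 2.79 in saline at 2 h. The summed alpha genes over the summed beta genes were at 1.1 in saline against 1.12 in cocaine at 2 h, 1.17 and 1.32 at 24 h, then 0.914 and 1.01 at 7 d. At each time the alpha to beta ratio was thus higher in cocaine, by a log2 difference of 0.03 at 2 h, 0.17 at 24 h and 0.14 at 7 d. The alpha sum had cocaine over saline ratios of 1.57, 1.16 and 1.23 at the 3 times, and the beta sum 1.54, 1.03 and 1.11. The 4 globin genes together were 310 to 393 times the level of Alas2, with FPKM compared per length.

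Over the 6 groups, the log2 levels of Hba-a1 and Hba-a2 had a Pearson correlation of 0.996, those of Hbb-bs and Hbb-bt of 0.83, and those of Alas2 with Hba-a1 of 0.93 and with Hbb-bs of 0.52. These are descriptions over 6 pooled values that share their tables. The 2 alpha genes also share most of their reads' sequence.

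The other genes of the 2 globin clusters were nearly silent. Hba-x, the embryonic zeta chain, and Hbb-bh1 and Hbb-bh2 were listed at 0 in all 6 groups, and Hbb-y, an embryonic epsilon-type chain, reached at most 0.05 FPKM. Hbq1a, a theta globin beside Hba-a2, ranged from 0.131 to 0.411 FPKM. Of the 9 globin genes outside the members that had a value, 7 stayed below 1 FPKM in every group. The remaining pair were the globins of brain and fibroblast-like cells: Cygb (cytoglobin) was at 19.1 FPKM in saline against 20.5 in cocaine at 2 h, and Ngb (neuroglobin) at 1.84 and 1.63. Cygb was within 1.2-fold at all 3 times, and Ngb was past 1.2-fold only at 24 h (1.58 and 1.95 FPKM). Apex2, a DNA repair enzyme listed under the same stretch as Alas2, was at 1.05 and 1.26 FPKM at 2 h, a log2 ratio of 0.26, against 0.54 for Alas2. Its log2 ratios at 24 h and 7 d were -0.29 and -0.01. Pfkfb1, also under that stretch and below 1 FPKM, was lower in cocaine at 2 h, 24 h and 7 d, with log2 ratios of -0.37, -0.34 and -0.69.

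Markers of the red cell itself did not share the level of the globins. Of 22 markers with a value, 14 were below 1 FPKM in all 6 groups, and 12 of these were listed at 0 in at least 1 group. Slc4a1, the anion exchanger of the red cell membrane and one of its most abundant proteins, reached at most 0.133 FPKM, Rhag, of the Rh complex, at most 0.021 and Kel, the Kell blood group protein, at most 0.012; Cldn13 was at 0 throughout. The summed level of the 14 ranged from 0.851 to 1.58 FPKM over the groups. The other 8 (Sptb, Ank1, Bpgm, Slc25a37, Fech, Mkrn1, Bnip3l and Ube2l6) had at least 1 FPKM in every group, with Bnip3l, a mitophagy receptor, the highest on average over the 6 groups, at 44.2 and 44.0 FPKM at 2 h. None of these 8 was past 1.2-fold at 2 h or 24 h, and at 7 d Sptb alone was, at 7.99 and 10.2 FPKM. Their median log2 ratios were -0.04, -0.06 and -0.02 at the 3 times. At 2 h the 8 markers of at least 1 FPKM were thus all within 1.2-fold. They lay far above membrane markers such as Slc4a1, and Fech is also in the heme synthesis list. Their ratios therefore do not measure red cell content. The 14 others were below 1 FPKM, 12 of them listed at 0 in some group, where a ratio cannot be read. Red cell content was not tested.

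**Figure D4:**
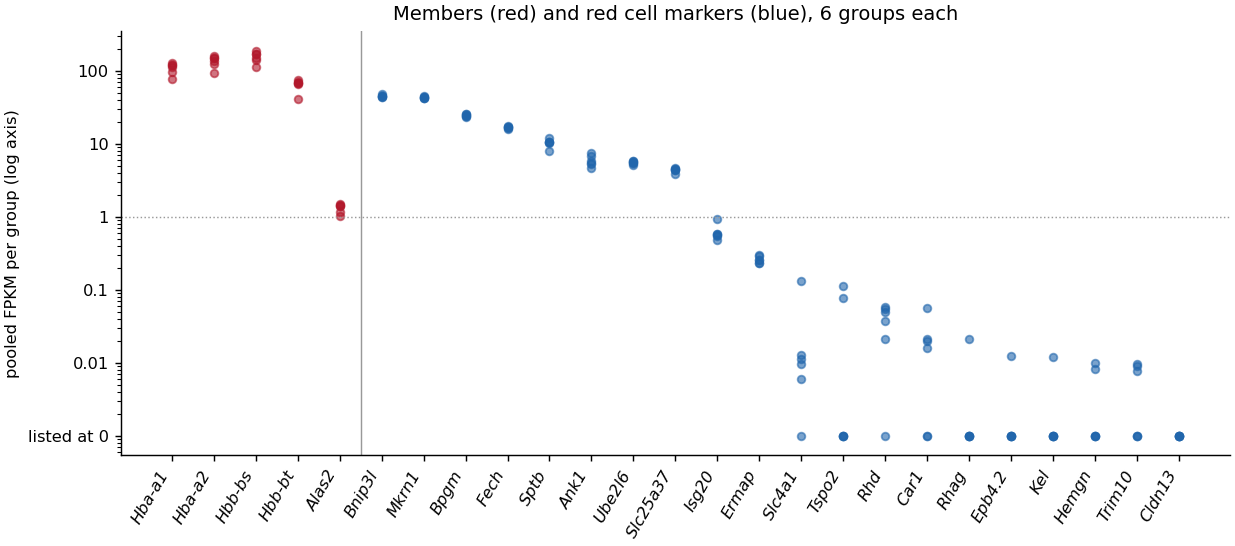
Pooled FPKM (y axis, log scale, with values of 0 drawn at the bottom) of the 5 members in red and of 20 red cell markers in blue (x axis), 6 points per gene for the 6 groups. The globin genes lie between 40.4 and 188 FPKM, Alas2 between 1.04 and 1.51, and 12 of the markers drawn below 1 throughout.

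Of the factors that switch globin genes on in red cell precursors, Klf1, Gata1, Nfe2 and Tal1 were below 1 FPKM in every group. Tal1 was the highest of these, at 0.327 to 0.529 FPKM. Klf1, which binds CACCC boxes, reached at most 0.141 FPKM, Gata1, which binds GATA sites, at most 0.040, and Nfe2, of the globin locus control regions, at most 0.060. Of the 9 regulators with a value, 5, among them Lmo2, a partner of Ldb1 and Gata1, were above 1 FPKM in every group, led by Ldb1, a bridging factor, at 27.3 and 30.5 FPKM at 2 h. Epor, the erythropoietin receptor, was the only one past 1.2-fold at 2 h, at 2.54 FPKM in saline against 3.41 in cocaine (log2 ratio 0.42), and none was at 24 h or 7 d. The list medians were 0.16, 0.03 and 0.02.

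Heme synthesis apart from Alas2 was level. Of the 12 genes with a value, Alas2 was the only one past 1.2-fold at 2 h, and the median log2 ratio of the list took the values -0.003, -0.05 and 0.01 at the 3 times. Alas1, the form of the enzyme used outside red cells, was at 20.8 and 21.9 FPKM at 2 h, 14.5 times Alas2 in the cocaine group, with a log2 ratio of 0.07. Fech, which inserts iron into heme, was at 16.9 and 16.1 FPKM, and Tmem14c, a mitochondrial porphyrin carrier and the most abundant of the list, at 39.2 and 38.8. Tspo was lower past 1.2-fold at 24 h, with a log2 ratio of -0.37. The log2 ratio of Alas2 at 2 h lay 0.39 above that of the next gene of the list, Tspo.

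Among genes that break heme down or take it up, Hmox1, the inducible heme oxygenase, was past 1.2-fold at 2 h, at 2.52 FPKM in saline against 3.65 in cocaine (log2 ratio 0.53); at 24 h and 7 d its log2 ratios were 0.21 and 0.14. It was the only 1 of 7 list genes of at least 1 FPKM that was higher past 1.2-fold at any time, and Blvra was lower at 7 d. Lrp1, a receptor for the heme-hemopexin complex among other ligands and the most abundant of the list, was at 65.1 and 69.0 FPKM at 2 h. The list medians were -0.04, 0.03 and -0.04. In the iron list, Heph (hephaestin), a copper ferroxidase of iron export, was higher in cocaine at 2 h and 7 d and not at 24 h: 0.854 and 1.23 FPKM at 2 h (log2 ratio 0.52), 1.19 and 1.12 at 24 h, then 0.750 and 1.03 at 7 d (0.46). Cp (ceruloplasmin), the related ferroxidase, was at 5.56 and 7.15 FPKM at 2 h, 6.75 and 5.77 at 24 h, then 5.12 and 6.09 at 7 d. Fth1, the ferritin heavy chain, was the most abundant at 2142 and 2301 FPKM at 2 h and was within 1.2-fold at all times. At 2 h, 2 of 13 iron genes were higher and 1, Slc40a1, lower past 1.2-fold, and none was at 24 h or 7 d among those of at least 1 FPKM. Of all genes, 10.7% were higher and 7.24% lower by that much at 2 h.

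Some markers of the vessel wall were also higher in cocaine at 2 h and at 7 d, while at 24 h their list medians were slightly below 0. At 2 h, 5 of 15 endothelial genes (Cdh5, Ly6c1, Slc2a1, Vwf and Kdr) were higher past 1.2-fold, at 24 h none, and at 7 d 2, Flt1 and Vwf. Of all genes, 10.7%, 6.03% and 8.46% were at 2 h, 24 h and 7 d, so that the endothelial count at 7 d is near that share. The list medians were 0.14, -0.06 and 0.15. Their summed level was 274 FPKM in saline against 309 in cocaine at 2 h, 296 and 294 at 24 h, then 274 and 287 at 7 d, so that saline at 2 h did not stand apart from the other saline groups as it did for the globins. Vwf, the von Willebrand factor of endothelium, was at 4.13 and 5.31 FPKM at 2 h and at 3.27 and 4.61 at 7 d, log2 ratios of 0.36 and 0.49. Itm2a, the most abundant of the list on average over the 6 groups, was at 53.1 and 52.5 FPKM at 2 h.

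Of 11 pericyte and smooth muscle genes, 2 were higher past 1.2-fold at 2 h, none at 24 h and 5 at 7 d, with list medians of 0.15, -0.09 and 0.22. The shares of all genes were 10.7%, 6.03% and 8.46%, so that the 2 h count is near its share. Myh11, the smooth muscle myosin, was at 1.86 and 2.25 FPKM at 2 h and at 1.14 and 1.65 at 7 d; Tagln, an actin-binding protein of the same cells, was at 6.70 and 8.42 at 2 h and at 5.34 and 6.50 at 7 d. Vtn, the most abundant, stayed at 45.6 and 45.5 FPKM at 2 h. Among meningeal and choroid plexus genes the medians were 0.14, -0.21 and 0.26, and Igf2, the most abundant, was at 38.1 and 45.0 FPKM at 2 h, 45.2 and 39.3 at 24 h, then 34.6 and 43.4 at 7 d. Their summed level was 72.1 and 82.6 FPKM at 2 h, 87.0 and 74.5 at 24 h, then 71.3 and 90.2 at 7 d. Ttr (transthyretin), of the choroid plexus, went from 1.90 FPKM in saline to 0.461 in cocaine at 2 h and from 0.284 to 6.54 at 7 d, with no likeness to the globins. Kl, another plexus gene, was at 0.406 and 0.511 FPKM at 2 h.

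Markers of white cells and platelets, the other cells that blood would bring, were low. Only 5 of 17 had a mean of at least 1 FPKM at 2 h, and their median log2 ratio was 0.05, then 0.14 at 24 h and 0.27 at 7 d. Ly6c2, the most abundant, was at 6.66 and 7.71 FPKM at 2 h. S100a8 and S100a9, a pair of neutrophil proteins that form 1 complex, went opposite ways at 2 h: S100a8 from 1.51 to 0.671 FPKM and S100a9 from 1.27 to 1.62. Pf4, of platelets, was at 2.44 and 2.06 FPKM at 2 h. At 24 h none of the 5 was higher past 1.2-fold and Pf4 alone was lower (6.03% and 5.24% of all genes were). At 7 d, 3 of the 5 were higher past 1.2-fold: S100a8, S100a9 and Pf4, with log2 ratios of 0.30, 0.71 and 0.27. Itga2b was lower then, at -0.42. Of all genes, 8.46% were higher and 11.8% lower by that much at 7 d. Cd3d, Cd3e, Cd79a, Ms4a1, Ngp and Ppbp were each past 1.2-fold in 1 direction at both 2 h and 7 d, at levels below 1 FPKM in every group; Cd79a, of B cells, was at 0.379 and 0.632 FPKM at 2 h. The summed level of the 17 was 14.6 and 15.2 FPKM at 2 h, 16.9 and 17.3 at 24 h, then 17.9 and 20.7 at 7 d. Saline at 2 h was the lowest, but Ly6c2 alone held 6.66 of the 14.6 FPKM there and 7.71 of the 15.2 in cocaine. The part of blood or vessel content in the globin values was not tested.

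**Figure D5:**
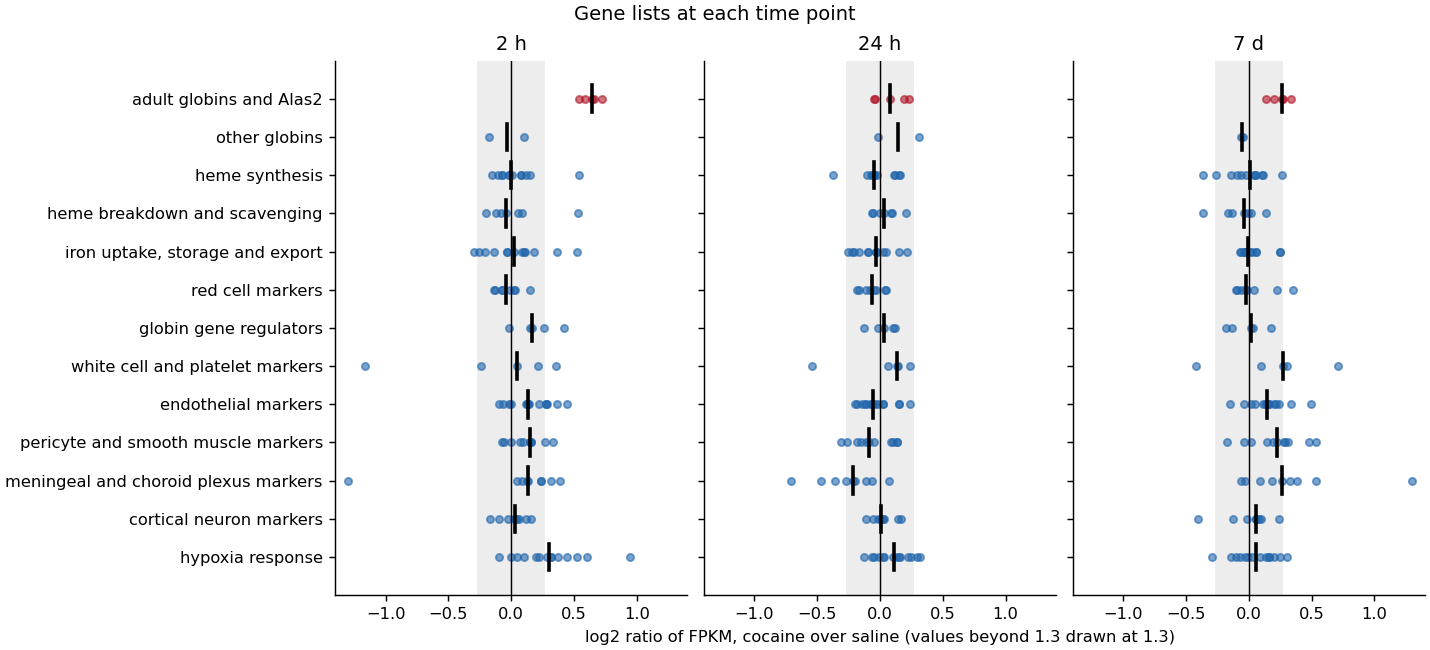
Log2 ratio of FPKM, cocaine over saline (x axis), of the genes of at least 1 FPKM in each list (y axis) at 2 h, 24 h and 7 d; points are genes, black bars list medians, and the grey band is within 1.2-fold. At 2 h the median of the members is 0.64 and those of the vessel wall lists are 0.14 and 0.15. That of the 8 red cell markers of at least 1 FPKM is -0.04, and these do not measure red cell content.

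By the 3 ratios alone, the genes closest to the mean of the 4 globin genes (0.65, 0.12 and 0.24) among 12525 genes were Smim3, Fkbp5, BC006965, Pdia4 and Mfsd2a, with root mean square differences of 0.04 to 0.05. Fkbp5, a co-chaperone of the glucocorticoid receptor, was at 6.02 FPKM in saline against 9.40 in cocaine at 2 h, 5.60 and 6.02 at 24 h, then 4.80 and 5.40 at 7 d. Mfsd2a, a lipid transporter of brain endothelium, was at 8.99 and 13.9 FPKM at 2 h, 9.22 and 10.5 at 24 h, then 7.86 and 9.26 at 7 d. In both, cocaine at 2 h was the highest of the 6 groups and saline at 7 d the lowest, whereas in the globin genes saline at 2 h was the lowest. By the levels in the 6 groups, the genes closest to the mean log2 level of the globins among 12270 were Mif4gd, Gm15432, A330050F15Rik, Gpr155 and Efcab14, with Pearson correlations of 0.97 to 0.99 over 6 values. Mif4gd, a translation factor-like protein, was at 5.49 and 6.91 FPKM at 2 h, 6.90 and 7.24 at 24 h, then 6.59 and 7.40 at 7 d. Its saline value at 2 h was the lowest of the 6, as in the globins, at a smaller scale. No gene was named by both measures.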

How the data were processed

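PFC RNA of 12 libraries (6 groups of 2) was sequenced by the authors, who per the labels and the paper extracted it with Trizol, selected polyadenylated RNA and sequenced read pairs. The labels list CASAVA 1.8.2, Trimmomatic 0.32, TopHat2 2.0.12, Cufflinks 2.2.1 and Cuffdiff with GRCm38, while the paper names cutadapt and mm9; 99.8% to 99.9% of genes with a RefSeq position on GRCm38.p6 overlapped it, so GRCm38 was used. The labels' protocol speaks of 6 libraries although 12 samples are listed; the 12 were taken. The labels and the paper also differ in read length, which bears on how well near-identical genes were separated.

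The deposited FPKM values, 1 per locus, group and time point, were pooled by the authors over the 2 libraries of a group in 1 Cuffdiff run per time point. The same tables hold the authors' log2 fold changes, test statistics, p values and q values, which were not used. The deposited columns do not name the drug plainly. They were taken as saline and cocaine because that order gave the paper's supplementary FPKM within 2% for 376 of 453, 13 of 14 and 487 of 528 genes read at 2 h, 24 h and 7 d, and the exchanged order gave 0.

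With pandas 2.3.3 and numpy 2.4.6 under Python 3.11.15 (plots by matplotlib 3.10.9), a log2 ratio was taken of cocaine over saline with no pseudocount. Rows that the authors marked as failed were left out, and a name on several loci took its longest locus (the higher mean FPKM on ties). Genes counted as higher or lower past 1.2-fold, over named genes with a mean of at least 1 FPKM. The ratio and counting steps were tested on simulated data. Pooled values allow no test, so none was run. The members and gene lists were chosen with earlier results of these data known. Named genes were the 5 members, from each list those past 1.2-fold in 1 direction at 2 h and 7 d and the most abundant, and the 5 genes most like the globins by each of 2 measures; further list genes were named after their values were seen. Some values of single list genes are not reported here. Flvcr1, Flvcr2 and Epb42 were read under the older names Mfsd7b, Mfsd7c and Epb4.2. Hbb-b1, Hbb-b2, Abcb10, Tf, Ahsp, Zfpm1, Gp1bb, Esam, Egfl7, Eng and Syt1 were not analysed here, for want of a usable row under the gene's own name at all 3 times. Alternatives were other folds, a pseudocount of 1, centring on the median gene, other filters, sums over loci, a correction for coding length and, chosen after the data were seen, the mean of the 3 saline groups as the control.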

Additional observations from a re-analysis of the deposited data

How the results depend on the processing

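Leaving out replicates was not possible, because only pooled values are held. The paper gives a range of reads over the replicates, but the depth of each library is unknown. No paired analysis was possible because each group has 1 pooled value. A log2 value was taken as moved at a shift of 0.1 or more, and a count or share at 1.5 times. Summing over loci, centring on the median gene and averaging the 4 log2 ratios moved no member ratio or globin sum by more than 0.024. A pseudocount of 1 lowered the log2 ratio of Alas2, which is near 1 FPKM, to 0.30 at 2 h and 0.15 at 7 d, where it was then no longer past 1.2-fold and 2 members were in place of 3. Less the median of genes of like coding length, the 7 d log2 ratios of Hba-a1, Hba-a2, Hbb-bs and Hbb-bt were 0.47, 0.41, 0.27 and 0.34. Against the geometric mean of the 3 saline groups (chosen after the data were seen), the 2 h log2 ratios of Hba-a1, Hba-a2, Hbb-bs, Hbb-bt and Alas2 were 0.34, 0.34, 0.27, 0.22 and 0.32. The same setting gave 0.43, 0.44, 0.23 and 0.20 for Hba-a1, Hba-a2, Hbb-bt and Alas2 at 24 h, 0.46 and 0.42 for Hbb-bs and Hbb-bt at 7 d, and 0.30, 0.29 and 0.41 for the globin sum at 2 h, 24 h and 7 d. Under it 2 members were past 1.2-fold at 24 h in place of 0 (5.31% of all genes were), and Hbb-bt and Alas2, slightly lower in cocaine at 24 h, were higher. At a fold of 1.1, 2 members were past it at 24 h and 5 at 7 d (16.9% and 21.4% of all genes were); at a fold of 1.5, 0 were at 7 d. The share of all genes higher past 1.2-fold was 17.5%, 14.8% and 17.7% at 2 h, 24 h and 7 d with no filter, 5.28%, 2.74% and 3.49% at a mean of at least 10 FPKM, and 2.05%, 1.39% and 1.16% at a fold of 1.5. Among list medians, 105 of 108 alternatives moved by less than 0.1; the other 3 came from low genes let in without a filter.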

Other observations

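The hypoxia response list, genes that cells raise when oxygen is short, was the list with the highest median at 2 h after that of the members. Of its 14 genes of at least 1 FPKM, 8 were higher past 1.2-fold at 2 h and none was lower. Among all genes, 10.7% were higher by that much then. Vegfa, Egln1, Egln3, Ldha, Bnip3 and Pdk1 stayed within 1.2-fold at 2 h, with log2 ratios of 0.22, 0.20, 0.10, 0.05, -0.0007 and -0.10. By 24 h, 2 of the list were higher past 1.2-fold (6.03% of all genes). By 7 d, Ndrg1 alone was higher and Bnip3 alone lower (8.46% and 11.8% of all genes). The median log2 ratio of the list was 0.30 at 2 h, and the medians at 24 h and 7 d were 0.11 and 0.06. P4ha1, a collagen prolyl hydroxylase, was at 9.54 FPKM in saline against 14.5 in cocaine at 2 h (log2 ratio 0.60), 9.71 and 11.3 at 24 h, and 8.80 and 8.74 at 7 d. Pfkfb3, a regulator of glycolysis, was at 4.90 and 7.06 FPKM at 2 h (0.53), and Adm (adrenomedullin) at 0.882 and 1.70. Ndrg1 was past 1.2-fold at both 2 h (14.8 and 18.5 FPKM) and 7 d (14.4 and 17.8). Ldha, the most abundant of the list, was at 196 and 202 FPKM at 2 h. Hif3a was higher at 2 h and 7 d and Car9 lower, both below 1 FPKM. The paper states that dry ice was used to asphyxiate the mice. The part of that step in the values of this list was not tested.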
